A study of Homo sapiens with 114 samples.

Results

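The 7 metallothionein genes MT1E, MT1F, MT1G, MT1H, MT1M, MT1X and MT2A and the zinc exporter gene SLC30A1 were followed through 26 drug and chemical exposures of HK-2 cells. HK-2 is an immortalized human line of renal proximal tubular epithelial cells. The 8 genes were chosen by symbol, out of 19775 genes named by the array's annotation, and they hold 14 of its 54675 probe sets. Total RNA was hybridised to 114 single-sample Affymetrix arrays in 38 groups of 3 arrays, which the labels call biological replicates. The 26 treated groups were exposed to CsA, Fk, Ra, CdCl or Di for 12 h or 48 h with no dose named, to a high or low dose of Aa, Nnm or Kbr for 24 h or 48 h, or to a high or low dose of Ota for 24 h or 72 h. The labels give the compounds by these abbreviations and the doses by these words, without amounts. The 12 control groups received the vehicle and form 6 control families, each with a group at both times. CdCl and Di share a family, as do Fk and Ra and as do Kbr and Nnm, while Aa, CsA and Ota each have their own. All cultures shared a defined medium with hydrocortisone, insulin, transferrin, selenite and EGF, and all came from the same line, so p-values measure the spread between cultures of HK-2 and not between people.

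Metallothioneins are small cysteine-rich proteins that bind zinc and copper and take up cadmium. In the kidney they are best known for holding cadmium in the proximal tubule. Their genes and SLC30A1, which encodes a transporter (ZnT1) that carries zinc out of the cytosol, are known targets of MTF1, a transcription factor that senses zinc and binds metal response elements. Glucocorticoids are also known inducers of metallothioneins.

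The values are log2 intensities, so a difference of 1 is a 2-fold change, and the highest value of any probe set on any array was 16.18. In the control arrays, 5 of 5 epithelial markers had medians above log2 4, among them KRT18 at 12.78 and EPCAM at 13.10, against 1 of 8 proximal tubule markers (DPP4, 11.60). The megalin gene LRP2 (2.57), the cubilin gene CUBN (2.12) and AQP1 (2.44) were at the low end of the scale, as were both endothelial and both leucocyte markers. COL1A1 was the exception among the fibroblast markers, at 8.20. CsA and its controls carry a laboratory number in the labels, which the other groups lack, so this family was compared only within itself. Arrays numbered 3 of CsA and its controls, and of Fk, Ra and their controls at 48 h, stood above the others of their groups in metallothionein values. The high-dose Ota arrays at 24 h had upper quartiles of 6.32 to 6.59, below their controls at 6.97 to 7.08, and over all 11138 genes tested the median change in this group was -0.29. Ra replicate 2 at 48 h stood lower still, with an upper quartile of 6.09 against 6.89 and 7.02 in the other Ra arrays and 6.88 to 6.96 in their controls.

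The sequence before the start site of the genes is shown because metal response elements lie there in this family. RefSeq's promoter table (GRCh38.p14) matched 4 of the 8 members: MT1H, MT1X, MT2A and SLC30A1. The 250 bases before each start were searched on both strands for the core letters TGCACNC and TGCGCNC, whose 7 bases are in capitals below (a match on the other strand reads GNGTGCA or GNGCGCA), and 0 matches overlapped one another in these 4. The windows are chr16:56608334-56608583 (MT2A, plus strand), chr16:56669564-56669813 (MT1H, plus), chr16:56682220-56682469 (MT1X, plus) and chr1:211579162-211579411 (SLC30A1, minus), each printed 5′ to 3′ in the gene's direction.
MT2A: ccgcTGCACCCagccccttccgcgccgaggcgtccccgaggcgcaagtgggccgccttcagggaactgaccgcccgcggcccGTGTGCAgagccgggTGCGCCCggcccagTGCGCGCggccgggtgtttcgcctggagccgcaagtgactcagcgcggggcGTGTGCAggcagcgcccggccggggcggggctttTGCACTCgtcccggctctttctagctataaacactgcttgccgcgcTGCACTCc
MT1H: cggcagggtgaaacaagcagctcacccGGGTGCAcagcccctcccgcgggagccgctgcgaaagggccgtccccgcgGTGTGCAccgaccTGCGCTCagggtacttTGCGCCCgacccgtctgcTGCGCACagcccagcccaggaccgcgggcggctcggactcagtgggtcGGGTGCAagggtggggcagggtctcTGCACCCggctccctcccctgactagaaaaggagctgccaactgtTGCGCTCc
MT1X: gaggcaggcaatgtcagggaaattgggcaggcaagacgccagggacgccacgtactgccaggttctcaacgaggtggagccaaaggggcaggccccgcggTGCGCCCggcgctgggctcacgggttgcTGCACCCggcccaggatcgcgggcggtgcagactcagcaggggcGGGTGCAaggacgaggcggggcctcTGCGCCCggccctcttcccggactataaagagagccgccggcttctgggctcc
SLC30A1: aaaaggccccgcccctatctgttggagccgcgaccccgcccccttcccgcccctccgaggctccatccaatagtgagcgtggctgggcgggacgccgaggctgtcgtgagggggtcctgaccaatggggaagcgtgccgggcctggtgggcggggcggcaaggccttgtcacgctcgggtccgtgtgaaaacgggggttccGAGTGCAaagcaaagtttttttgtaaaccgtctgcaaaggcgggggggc

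The MT1H window held 8 matches, the MT2A window 7, the MT1X window 4 and the SLC30A1 window 1. Among 35116 promoter windows of the same length, 24.8% held at least 1 match, 0.37% at least 4 and 0.0313% at least 7. A match is a run of letters, not a measured site. In the same annotation the 7 metallothionein members lie on chromosome 16 in the order MT2A, MT1E, MT1M, MT1F, MT1G, MT1H, MT1X, within a stretch of 15 annotated genes of which 14 carry an MT symbol, and SLC30A1 lies on chromosome 1.

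Each treated group was compared with the control group of the same time and family by limma, and changes under 0.05 after Benjamini-Hochberg adjustment across every gene tested in the family were called. Of 182 pairs of a metallothionein and a comparison, 16 were called higher, 60 lower and 106 were not called. These pairs are not separate observations, as most metallothionein probe sets may match several transcripts and the comparisons share arrays and controls. SLC30A1, represented by its brightest probe set 212907_at, was called higher in 5 of 26 comparisons and lower in 0. In these 5, between 14.5% and 22.9% of genes tested were called higher. Its other measured probe set, 228181_at, was called higher in 6 and lower in 2, and the pair had opposite signs in 10 of the 26. All 7 metallothioneins rose in 2 comparisons, CdCl at 12 h and 48 h. All 7 fell in 4 comparisons: Kbr high and low at 48 h, Ota high at 72 h and Di at 48 h. At least 1 metallothionein fell in 11 comparisons, where between 7.02% (Ota low 72 h) and 43.6% (Ota high 24 h) of genes tested were called lower. In 13 comparisons 0 metallothioneins were called by limma, and in 4 of these at least 1 was under an unadjusted p of 0.05. Shares of genes tested are of adjusted calls throughout, and those under an unadjusted p are not given here. All these totals come from fits that ignore the replicate numbers. With the number as a block, where it pairs the arrays, metallothioneins were also called in CsA 48 h, Nnm high and low 24 h and Nnm high 48 h.

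**Figure D1:**
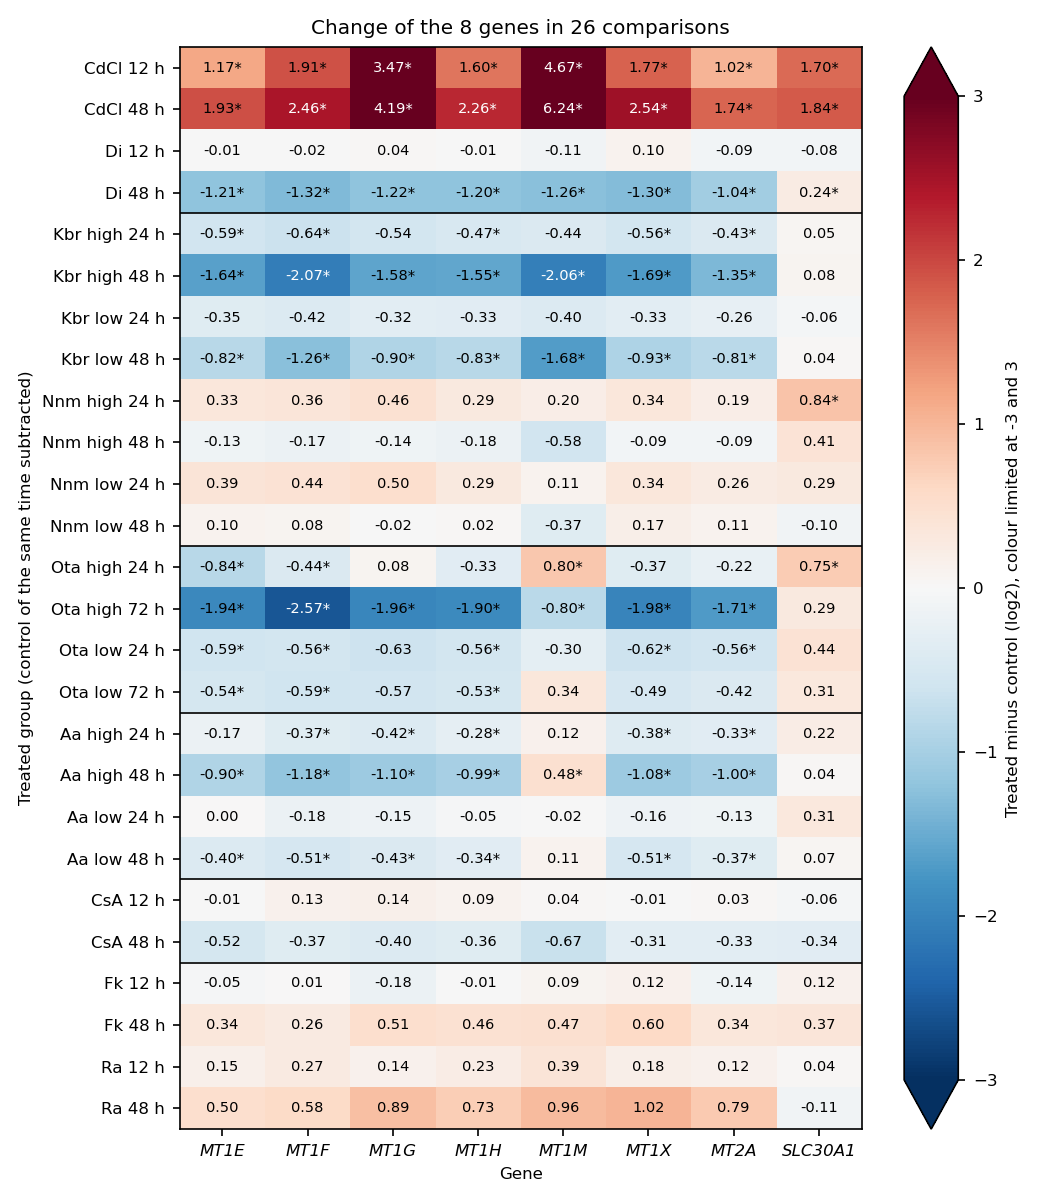
Treated minus control difference (log2, printed in each cell and shown by colour) for the 8 genes (columns) in the 26 treated groups (rows), with an asterisk where adjusted p was under 0.05. The CdCl rows are high for all 8 genes, and the rows for Di 48 h, Kbr 48 h and Ota high 72 h are low for the 7 metallothioneins and near 0 or slightly positive for SLC30A1 (probe set 212907_at).

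CdCl raised all 8 genes at both times. At 12 h, 14.5% of 11045 genes tested were called higher, and at 48 h 22.9% were. MT1M had the largest difference of the 8. Its control arrays at 12 h read 9.78, 9.83 and 9.77 and its CdCl arrays 14.49, 14.39 and 14.50. At 48 h the controls read 8.22, 8.06 and 8.45 and the CdCl arrays 14.58, 14.33 and 14.54. The groups lay far apart at both times, and the fold changes were 25.4 (log2 4.67, SE 0.10, adjusted p = 5.08e-14) and 75.4 (log2 6.24, SE 0.10, adjusted p = 1.56e-15).

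MT1G followed, with control arrays at 11.23, 11.13 and 11.22 and CdCl arrays at 14.73, 14.64 and 14.61 at 12 h. Its rise was 3.47 at 12 h and 4.19 at 48 h (log2, SE 0.07 in both), 11.1-fold and 18.3-fold. MT2A, the metallothionein transcript usually the most abundant in human cells, rose least. Its control arrays read 14.30, 14.26 and 14.31 at 12 h and its CdCl arrays 15.35, 15.31 and 15.26, a 2.02-fold rise (log2 1.02, SE 0.06, adjusted p = 1.26e-08), and at 48 h the rise was 3.35-fold (log2 1.74). The other metallothioneins rose by between 1.17 (MT1E) and 1.91 (MT1F) at 12 h and between 1.93 (MT1E) and 2.54 (MT1X) at 48 h on the log2 scale. In CdCl the means of MT1E, MT1F, MT1X and MT2A lay between 14.82 and 15.32 log2, while the highest probe set of each array lay between 15.64 and 16.18. How far array saturation limited these rises was not tested.

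SLC30A1 arrays read 12.22, 12.31 and 12.23 in the 12 h controls and 13.92, 13.96 and 13.99 with CdCl, a 3.25-fold rise (log2 1.70, SE 0.07, adjusted p = 1.07e-10). At 48 h the controls read 12.54, 12.72 and 12.66 and the CdCl arrays 14.46, 14.45 and 14.52, a 3.57-fold rise (log2 1.84, SE 0.07, adjusted p = 6.24e-11). The groups did not overlap at either time.

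**Figure D2:**
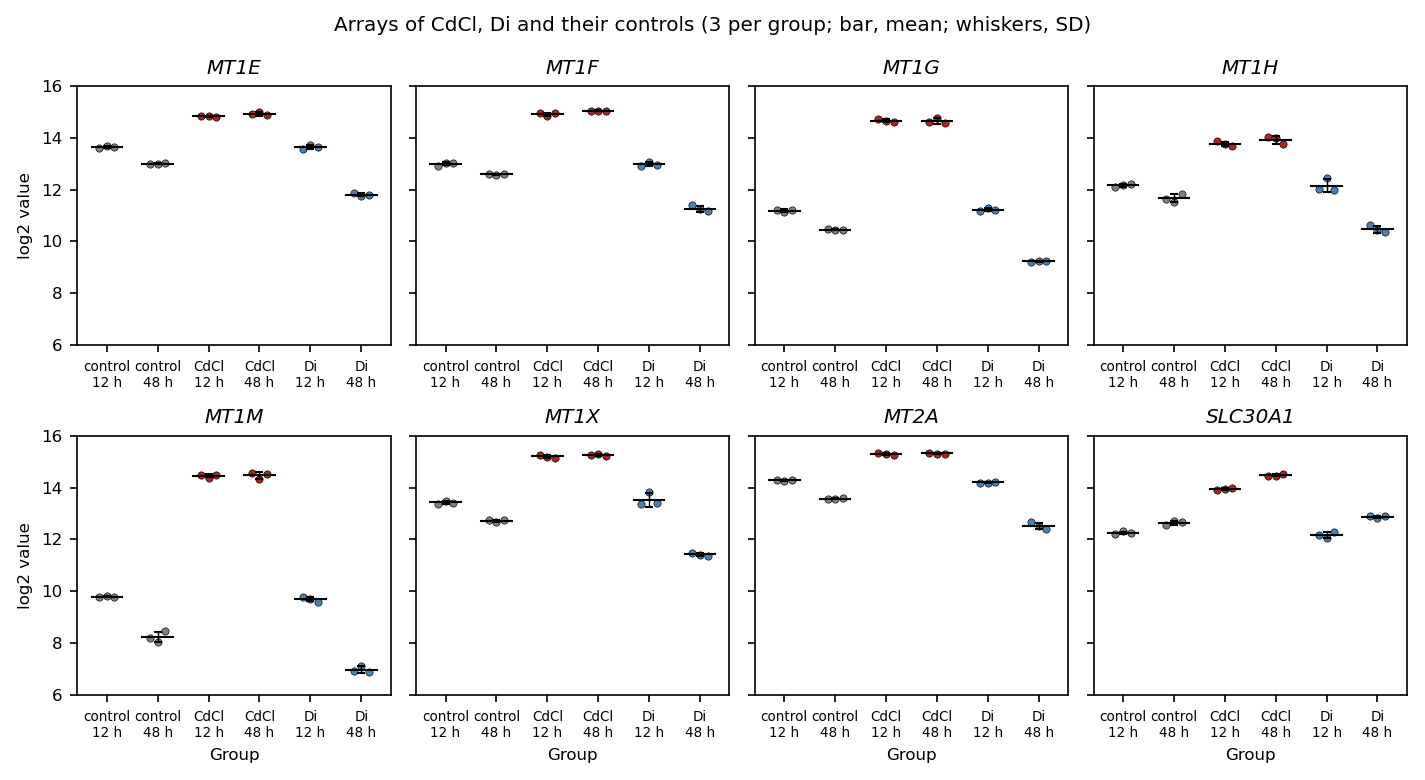
The log2 value of each array (points), the group mean (bar) and SD (whiskers) of the 8 genes in the control, CdCl and Di groups at 12 h and 48 h. The CdCl points of each metallothionein sit at nearly the same level at both times, while the control and Di points are lower at 48 h than at 12 h.

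The difference between CdCl and control was larger at 48 h than at 12 h for 7 of the 8 genes, where 21.1% of genes tested had such a difference called (interaction in limma). It was larger by 1.57 for MT1M and by 0.54 to 0.77 for the other 6 metallothioneins. The metallothionein levels in CdCl moved little: MT1M averaged 14.46 ± 0.06 at 12 h and 14.48 ± 0.14 at 48 h (SD, n = 3), and the mean differences of the 7 between the times ran from -0.01 to 0.17. Their control levels were lower at 48 h by between 0.40 (MT1F) and 1.55 (MT1M). SLC30A1 differed from this: its CdCl level was 0.52 higher at 48 h than at 12 h and its control level 0.38 higher, and its change was not called different between the times (0.14). Set against Di, the other compound of this family, CdCl was higher for all 8 genes at 12 h (15.2% of genes tested called higher) and at 48 h (23.6%), by up to 4.78 and 7.50 (MT1M).

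With Di at 12 h 0 of the 8 genes were called by limma and 0 were under an unadjusted p of 0.05, with differences between -0.11 and 0.10, where 11.8% of genes tested were called. At 48 h all 7 metallothioneins fell, where 25.9% of genes tested were called lower. MT1M arrays read 6.92, 7.14 and 6.89 with Di against 8.22, 8.06 and 8.45 in the controls. MT2A read 12.67, 12.50 and 12.42 against 13.58, 13.56 and 13.59. Neither gene's groups overlapped. The 7 falls were even in size, between 1.04 (MT2A) and 1.32 (MT1F) on the log2 scale, 2.06-fold to 2.50-fold lower, with adjusted p between 7.56e-10 and 1.65e-06. SLC30A1 arrays read 12.91, 12.83 and 12.89 with Di, above the controls, and the rise of 0.24 was called (SE 0.07, adjusted p = 0.0122, with 21.4% of genes tested called higher). Without control replicate 1 this rise was 0.19 and not called (adjusted p = 0.0634), and it was also not called in a fit of all 114 arrays (adjusted p = 0.383).

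Kbr lowered the metallothioneins at both doses by 48 h. With the high dose at 48 h, 7 of 7 metallothioneins fell, where 28.9% of genes tested were called lower. MT1F arrays read 10.58, 10.47 and 11.26 against 13.02, 12.70 and 12.80 in controls, 4.20-fold lower (log2 -2.07, SE 0.18, adjusted p = 8.63e-09). MT1M arrays read 6.88, 6.28 and 7.53 against 9.05, 8.67 and 9.17, 4.18-fold lower (log2 -2.06, SE 0.29, adjusted p = 4.60e-06). The groups did not overlap, and replicate 3 was the highest of the treated arrays for both genes. MT2A fell least, by 1.35. SLC30A1 changed by 0.08 (SE 0.25, adjusted p = 0.825) on 212907_at, while 228181_at rose by 1.09 (SE 0.40, adjusted p = 0.0275).

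The low dose of Kbr also lowered 7 of 7 at 48 h, where 14.3% of genes tested were called lower, by between 0.81 (MT2A) and 1.68 (MT1M). The high dose was lower than the low dose for 5 metallothioneins (6.32% of genes tested called lower), by 0.54 (MT2A) to 0.81 (MT1E), but not for MT1G (-0.68, adjusted p = 0.0672) or MT1M (-0.39, adjusted p = 0.478). Without high-dose replicate 2, 1 of these 5 dose differences was called, and the other four were between -0.66 and -0.42. With the replicate number as a block, MT1G also differed between the doses (adjusted p = 0.00894, with 13.5% of genes tested called lower).

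After 24 h, high-dose Kbr lowered 5 metallothioneins, MT1E, MT1F, MT1H, MT1X and MT2A, by 0.43 to 0.64 (13.4% of genes tested called lower), and with the replicate number as a block MT1G was called too (-0.54, adjusted p = 0.0172, with 21.8% of genes tested called lower). Leaving out any of the 6 arrays ended at least 1 of the 5 calls: without control replicate 1 or treated replicate 2, 1 call was left, and the 4 lost values were between -0.61 and -0.37. The low dose at 24 h gave 0 calls by limma, with 2 metallothioneins under an unadjusted p of 0.05 and all 7 between -0.42 and -0.26. There 1.36% of genes tested were called after adjustment, and the share under an unadjusted p is not given here. The high-dose change was larger at 48 h than at 24 h for 6 of 7 metallothioneins, by 0.92 (MT2A) to 1.62 (MT1M), where 1.31% of genes tested had such a difference called. Between 2 and 5 of these 6 stayed called when 1 array was left out, the fewest without control replicate 1 or high-dose replicate 1 or 2 at 48 h, or without control replicate 3 at 24 h.

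With Nnm, which shares its controls with Kbr, 0 metallothioneins were called lower without the replicate block. With the high dose at 24 h the 7 were 0.19 (MT2A) to 0.46 (MT1G) above the controls and 0 were called, with 1 under an unadjusted p of 0.05 (35.9% of genes tested called). With the low dose they were 0.11 (MT1M) to 0.50 (MT1G) above, 0 called and 3 under an unadjusted p of 0.05 (18.5% of genes tested called). Both shares are of adjusted calls, and those under an unadjusted p are not given here. The block on the replicate number called MT1E and MT1G higher at both doses (adjusted p between 0.0238 and 0.0361), with 23.5% of genes tested called higher at the high dose and 16% at the low dose. At 48 h 0 were called at the high dose (27.7% of genes tested called) or the low dose (14.1%), and 0 were under an unadjusted p of 0.05. With the block, MT1M was called lower at the high dose (-0.58, adjusted p = 0.0406, with 19.2% of genes tested called lower). SLC30A1 was above Kbr in the high-dose groups at 24 h (0.79), a call that ended without Nnm replicate 1 (0.57) or 3 (0.60). Compared directly at the same dose word and time, Nnm lay above Kbr for 6 metallothioneins at 24 h (24.4% of genes tested called higher at the high dose, 16.8% at the low dose) and for all 7 at 48 h (32.5% and 22.6%). At the high dose and 48 h these differences were between 1.26 (MT2A) and 1.90 (MT1F). The doses of the 2 compounds carry the same words but no amounts, so they cannot be called equal.

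SLC30A1 rose with the high dose of Nnm at 24 h (0.84, SE 0.25, adjusted p = 0.0122, with 17.6% of genes tested called higher), and its arrays disagreed. They read 13.23, 11.96 and 13.18 against controls of 11.96, 12.00 and 11.87, so replicate 2 lay among the controls and the groups overlapped. The call ended without Nnm replicate 1 (0.62) or replicate 3 (0.65), and in a fit of these 6 arrays alone (adjusted p = 0.147). At 48 h the order was similar, with 13.23, 12.03 and 12.66 against 12.40, 12.13 and 12.17, and the change of 0.41 was not called (adjusted p = 0.232). It was called with the mean of all SLC30A1 probe sets (0.65, adjusted p = 0.0233), which takes in 242716_at at the low end of the scale. On its own 228181_at rose by 1.55 (adjusted p = 0.00741). Without the Nnm arrays numbered 2, a choice made after the values were seen, the change was 1.26 at 24 h and 0.71 at 48 h and both were called (26% and 26.1% of genes tested called higher). That choice also called MT1G higher with the high dose at 24 h (0.63), and SLC30A1, MT1E, MT1F and MT1G with the low dose at 24 h, by 0.39, 0.47, 0.53 and 0.68 (19.4% called higher).

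Ota lowered all 7 metallothioneins at the high dose by 72 h, where 37.9% of genes tested were called lower. MT1F arrays read 9.59, 9.80 and 9.84 against 12.37, 12.34 and 12.24 in the controls, 5.94-fold lower (log2 -2.57, SE 0.15, adjusted p = 1.79e-09). MT2A arrays read 11.67, 11.82 and 11.97 against 13.61, 13.52 and 13.45, 3.27-fold lower (log2 -1.71). The groups did not overlap for either gene. MT1M fell least, by 0.80 (SE 0.19, adjusted p = 0.00184), with 6.97, 6.83 and 7.28 against 7.72, 7.90 and 7.88. It was not called in a fit of all arrays (adjusted p = 0.0815) or with arrays shifted to a common median (-0.46, adjusted p = 0.0780). SLC30A1 was 0.29 higher and not called (adjusted p = 0.109), though it was with arrays shifted to a common median (0.64, adjusted p = 2.23e-04). These are values of 212907_at: 228181_at fell by 1.35 (adjusted p = 0.0153), so the direction changed with the probe set. The 3' to 5' difference of the actin probe sets, a sign of RNA degradation when high, averaged 1.93 in these arrays against 1.37 in the controls; its part in the changes was not tested.

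After 24 h of high-dose Ota, 2 metallothioneins fell, 1 rose and 4 were not called. MT1E fell (-0.84, SE 0.14, adjusted p = 9.32e-05) and MT1F fell (-0.44, adjusted p = 0.0169), where 43.6% of genes tested were called lower. MT1M rose, with 10.57, 10.83 and 9.97 against 9.66, 9.49 and 9.83 (0.80, SE 0.19, adjusted p = 0.00189), and SLC30A1 rose, with 12.99, 12.37 and 13.16 against 12.11, 12.02 and 12.13 (0.75, SE 0.15, adjusted p = 5.07e-04), where 21.4% of genes tested were called higher. The treated arrays of both genes lay above all their controls. This rise of SLC30A1 is that of 212907_at: 228181_at fell by 1.55 (adjusted p = 0.00628). The mean of all SLC30A1 probe sets, which takes in 242716_at at the low end of the scale, was -0.26 and not called (adjusted p = 0.254). Shifting the arrays to a common median moved every change in this comparison up by 0.69, which turned MT1F to 0.25 and ended the calls of MT1E (-0.15) and MT1F and called MT1G (0.77) and MT2A (0.47) higher. Other settings added falls: without treated replicate 2, MT1H (-0.45), MT1X (-0.53) and MT2A (-0.39, against -0.22 with all arrays) were also called lower, where 42.8% of genes tested were, and the mean of a gene's probe sets called MT1X lower (-0.59, adjusted p = 0.00893). MT1H, at -0.33 with all arrays (adjusted p = 0.0535), was also called lower without control replicate 3 (-0.43), without the low-value filter, with the mean of probe sets, after quantile normalization and with limma's trend. MT1F was also not called without control replicate 2 (-0.38) or treated replicate 3 (-0.26), and MT1F and MT1M not in a fit of all arrays (adjusted p = 0.116 and 0.0837). Between 24 h and 72 h the high-dose change moved down for all 7 metallothioneins, by 1.10 (MT1E) to 2.12 (MT1F), with 20.6% of genes tested called that way.

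The low dose of Ota lowered 5 metallothioneins at 24 h, by 0.56 to 0.62 (9.99% of genes tested called lower), and MT1E, MT1F and MT1H at 72 h, by 0.53 to 0.59 (7.02%). MT1M was 0.30 lower at 24 h and 0.34 higher at 72 h, with neither called. Of the 24 h calls, 0 were left without control replicate 2 (values from -0.53 to -0.45) or treated replicate 2 (-0.64 to -0.53), and of the 72 h calls 0 were left without control replicate 1 (-0.57 to -0.50) or treated replicate 3 (-0.54 to -0.44). Shifting arrays to a common median ended all 5 at 24 h. Other settings added falls. MT1G, not called at 24 h (-0.63, adjusted p = 0.0668) or 72 h (-0.57, adjusted p = 0.0911), was called lower at both in fits of 2 groups only. That fit and the mean of probe sets also called MT1X and MT2A lower at 72 h (main values -0.49 and -0.42). Quantile normalization and limma's trend called MT2A lower there too. At 72 h the high dose was below the low dose for all 7 metallothioneins, by 1.15 (MT1M) to 1.97 (MT1F) (37% of genes tested called lower), and at 24 h it was above the low dose for MT1G (0.70) and MT1M (1.09), where 19.6% of genes tested were called higher. The MT1G difference was not called without high-dose replicate 2 (0.45).

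Aa lowered 6 metallothioneins at 48 h and MT1M stood apart. With the high dose, MT1E, MT1F, MT1G, MT1H, MT1X and MT2A fell by 0.90 to 1.18, 1.86-fold to 2.27-fold lower, where 34.5% of genes tested were called lower. MT1F arrays read 11.78, 11.66 and 11.51 against 12.86, 12.76 and 12.88. The actin 3' to 5' difference averaged 1.35 in these arrays (1.14 to 1.69) against 0.93 in the controls (0.77 to 1.15), and its part in the falls was not tested. MT1M arrays read 9.65, 9.56 and 9.45 against 9.07, 8.91 and 9.23, all above the controls, and the rise of 0.48 was called (SE 0.17, adjusted p = 0.0204, with 29.8% of genes tested called higher). That call ended without treated replicate 1 (0.44) or control replicate 2 (0.40), and in a fit of all arrays (adjusted p = 0.325). SLC30A1 changed by 0.04 (adjusted p = 0.804). The low dose lowered the same 6 by 0.34 to 0.51 (19.3% of genes tested called lower), with MT1M at 0.11. Without control replicate 3, 3 of these 6 calls were left, and the lost values lay between -0.37 and -0.26. The high dose was below the low dose at 48 h for these 6 by 0.50 to 0.67 (24.5% called lower).

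After 24 h, high-dose Aa lowered 5 metallothioneins, all but MT1E and MT1M, by 0.28 to 0.42 (23.9% of genes tested called lower). Without control replicate 1 (lost values -0.40 to -0.26) or treated replicate 2 (-0.27 to -0.20), 1 of the 5 was left. With the low dose at 24 h 0 metallothioneins were called and 0 were under an unadjusted p of 0.05, where 23.2% of genes tested were called. The block on the replicate number called SLC30A1 higher at 24 h with both doses (0.22, adjusted p = 0.0147, and 0.31, adjusted p = 0.00427), where 31.5% and 15.8% of genes tested were called higher. On 228181_at these changes were -0.48 and -0.13, with neither called. The change at the high dose was larger at 48 h than at 24 h for the 6 metallothioneins, by 0.66 to 0.81 (12.2% of genes tested called that way).

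The 24 calls in Aa high 24 h, Aa low 48 h, Kbr high 24 h and Ota low at both times were changes of under 0.65, and 0 of the 24 were called in a fit of all 114 arrays together, where adjusted p ran from 0.0577 to 0.377. That fit takes 1 spread per gene from all groups, and the metallothioneins spread most in CsA or Fk at 48 h. The SD of MT1G was 1.13 in CsA at 48 h against a median of 0.19 over groups. That of MT2A was 0.72 in Fk at 48 h against 0.10. How far this ended the 24 calls was not tested.

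**Figure D3:**
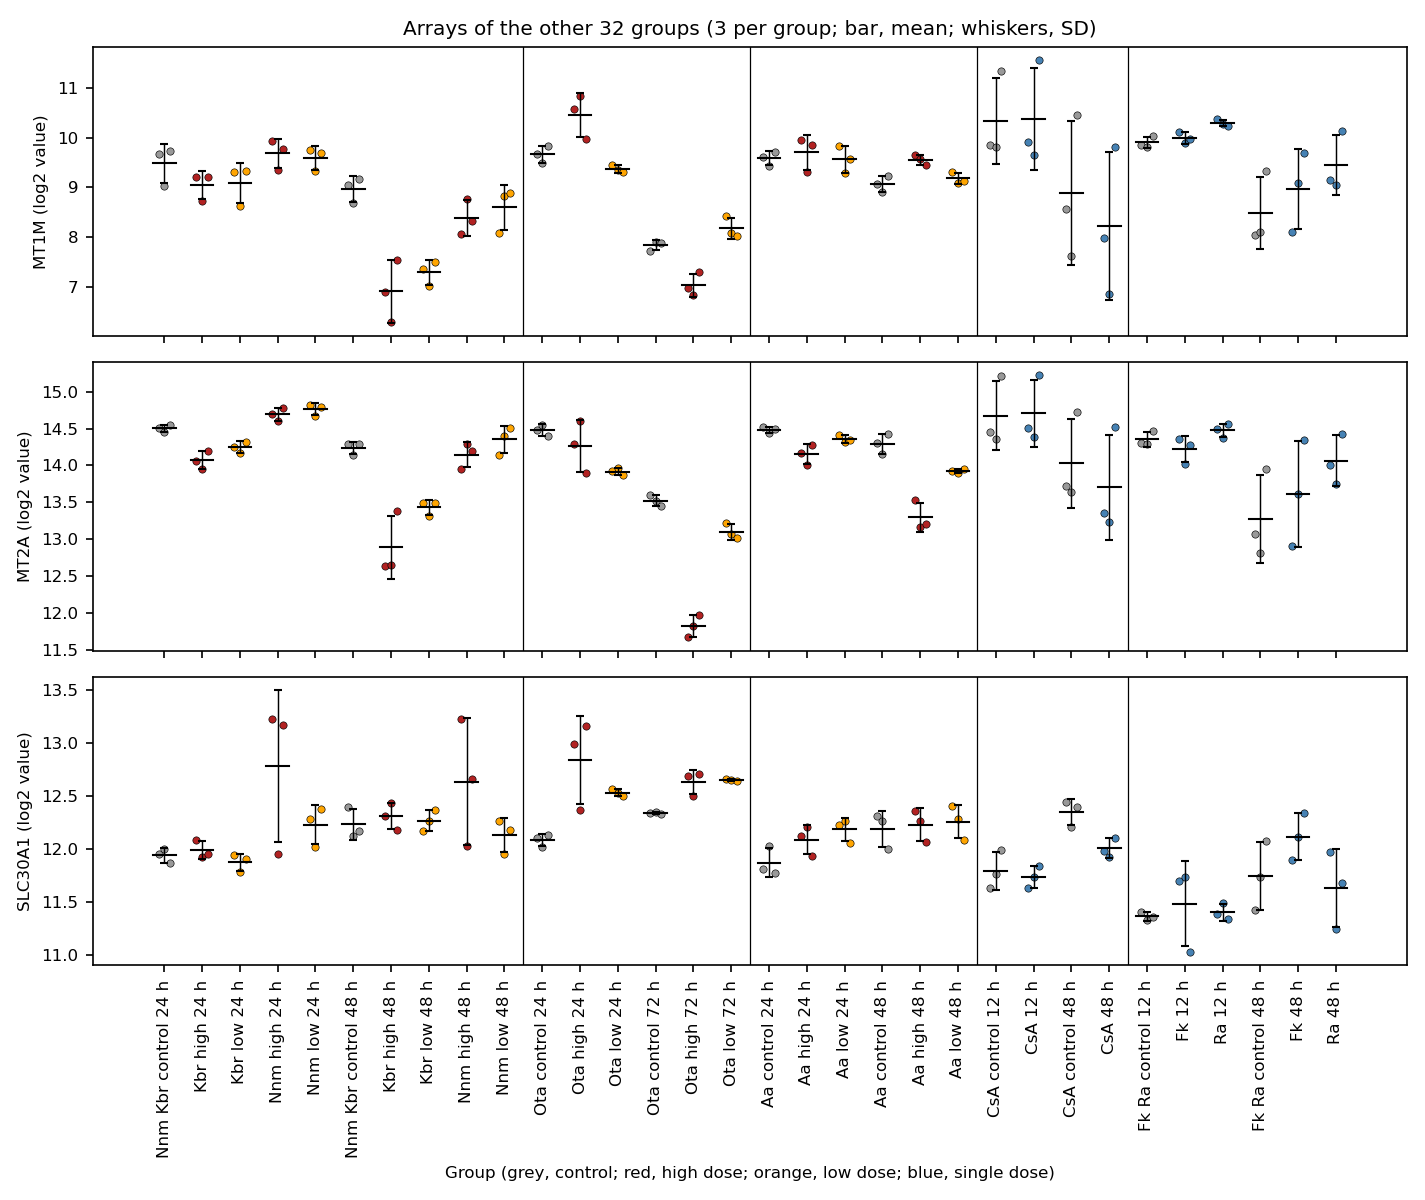
The log2 value of each array (points), the group mean (bar) and SD (whiskers) for MT1M (top), MT2A (middle) and SLC30A1 (bottom) in the 32 groups outside the CdCl and Di family, with vertical lines between families. MT2A is lowest in Ota high 72 h, MT1M in Kbr high 48 h, and the arrays of CsA and its controls spread widely in both metallothioneins but not in SLC30A1.

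CsA, Fk and Ra gave 0 called members at either time. Arrays of these groups were far apart: MT1M in CsA at 48 h read 7.98, 6.85 and 9.81 against 8.56, 7.62 and 10.46 in controls, with replicate 3 the highest of both groups. With CsA at 12 h the 8 changes lay between -0.06 and 0.14, 0 were under an unadjusted p of 0.05 and 0% of genes tested were called. At 48 h the 7 metallothioneins were 0.31 to 0.67 below the controls, with 0 under an unadjusted p of 0.05, and 0.00925% of genes tested were called. The replicate numbers of CsA and its controls pair the arrays, and with them as a block 6 members were called lower at 48 h: MT1E, MT1F, MT1M (-0.67, adjusted p = 0.00593), MT1X, MT2A and SLC30A1 (-0.34, adjusted p = 0.0243), where the same block called 13.1% of genes tested lower. Without the arrays numbered 3, 0 members were called at either time.

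With Fk the metallothioneins lay between -0.18 and 0.12 of the controls at 12 h and 0.26 to 0.60 above them at 48 h, with 0 under an unadjusted p of 0.05 at both times, where 0.00918% and 0% of genes tested were called. With Ra they were 0.12 to 0.39 above the controls at 12 h, with 0 under an unadjusted p of 0.05 and 0.0367% of genes tested called. At 48 h they were 0.50 (MT1E) to 1.02 (MT1X) above, with 0 called and 5 under an unadjusted p of 0.05. Of genes tested, 9.33% were called after adjustment, 1.87% higher, and the share under an unadjusted p is not given here. In a fit of all 114 arrays MT1G, MT1H, MT1X and MT2A were called higher (adjusted p = 0.0358, 0.0153, 0.00443 and 0.00538), where 5.87% of genes tested were. With the replicate number as a block, 6 metallothioneins, all but MT1E, were called higher (adjusted p between 0.0100 and 0.0422). The share of all genes tested that this block called is not given here, so this count cannot be set against it. Over both times of this family the numbers were not taken to pair the arrays. Without Ra replicate 2, the array of low upper quartile, the 7 were 0.62 to 1.20 above the controls and 0 were called. MT2A in Ra at 48 h read 14.01, 13.75 and 14.43 against 13.06, 12.81 and 13.95, so the groups overlapped through control replicate 3. Without that array 5 members were called higher with Ra (3.92% of genes tested called higher), and without the arrays numbered 3 of all 3 groups also 5 (MT1G, MT1H, MT1M, MT1X and MT2A, by 0.87 to 1.26, with 2.5% called higher). Between Fk and Ra 0 members were called, or under an unadjusted p of 0.05, at 12 h (0% of genes tested called) or 48 h (7.39%), where the metallothionein differences lay between -0.49 and -0.16 with SE of 0.32 to 0.41.

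In the control cultures the metallothioneins were lower and SLC30A1, by 212907_at, higher at the later time. Its other measured probe set, 228181_at, was not compared between the times. The mean of every metallothionein was lower at the later time in all 6 families and that of SLC30A1 higher, though not every difference was called. In the CdCl and Di controls all 7 metallothioneins fell from 12 h to 48 h (29.3% of genes tested called lower), by 0.40 (MT1F) to 1.55 (MT1M), and SLC30A1 rose by 0.38 (19.7% called higher). The actin 3' to 5' difference averaged 1.95 in these controls at 12 h (1.82 to 2.09) and 1.58 at 48 h (1.46 to 1.68). At 12 h it averaged 1.76 with CdCl and 1.43 with Di. Its part in the changes of this family was not tested. In the Ota controls all 7 fell from 24 h to 72 h (15.3% called lower), by 0.68 (MT1F) to 1.83 (MT1M), and MT1M read 9.66, 9.49 and 9.83 at 24 h and 7.72, 7.90 and 7.88 at 72 h. In the Fk and Ra controls MT1G, MT1M, MT1X and MT2A fell by 1.08 to 1.42 (8.18% called lower). These 4 calls ended without any of the 12 h arrays or without 48 h replicate 1 or 2 (values from -1.46 to -0.85), and 7 were called without 48 h replicate 3.

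In the CsA controls 0 metallothioneins were called, or under an unadjusted p of 0.05, at differences of -1.46 to -0.42. SLC30A1 rose there by 0.56 (6.89% of genes tested called higher), a call that ended without replicate 1 or 2 at 12 h (0.48 and 0.54) or 1 or 3 at 48 h (0.51 and 0.54). With the replicate block all 7 metallothioneins were called lower there (14.6% of genes tested called lower with it, 6.63% without). The Aa and Nnm with Kbr controls, at 48 h against 24 h, had metallothionein differences of -0.52 to -0.05 with 0 called, where 1.25% and 0.598% of genes tested were called. For Aa, 1 metallothionein was under an unadjusted p of 0.05, and for Nnm with Kbr 0 were. The block called 1 metallothionein lower and SLC30A1 higher for Aa, and the share of all genes tested that it called is not given here.

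**Figure D4:**
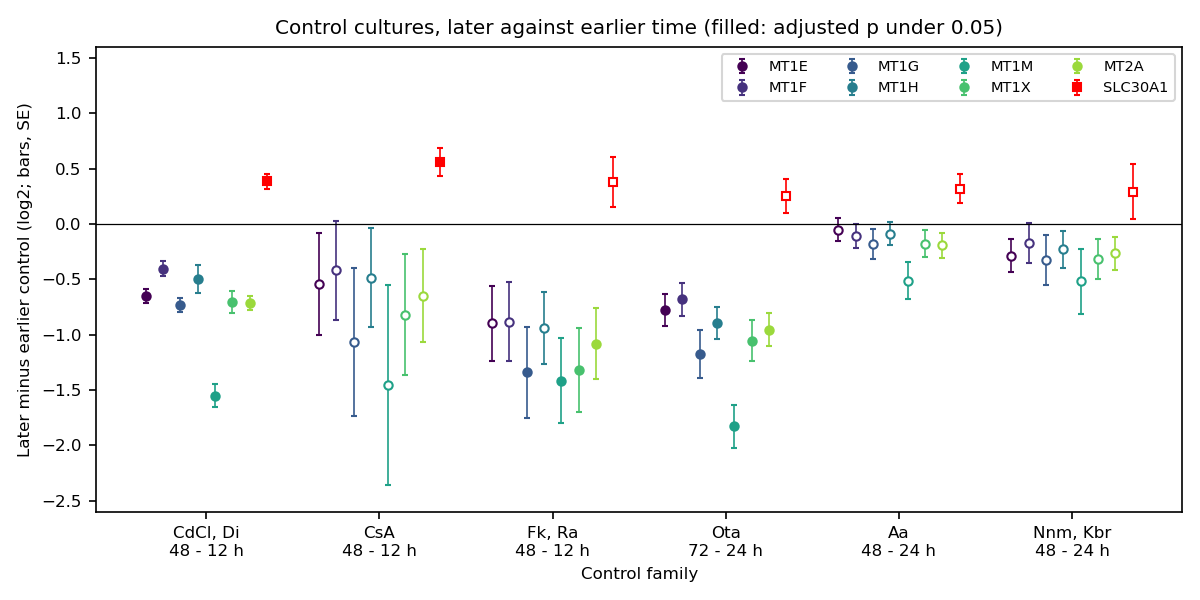
Difference between the later and the earlier control group (log2, with SE) for the 8 genes in the 6 control families, filled where adjusted p was under 0.05. All 42 metallothionein points lie below 0 and all 6 SLC30A1 points (probe set 212907_at) above it.

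Across the 38 groups, the means of all 8 genes were highest in the CdCl groups, from which the next group down did not overlap. The lowest mean was that of Ota high 72 h for 6 metallothioneins, and of Kbr high 48 h for MT1M (6.90), followed by Di 48 h (6.98) and Ota high 72 h (7.03). For SLC30A1 the order was CdCl 48 h (14.48), CdCl 12 h (13.96) and Di 48 h (12.88), and the lowest was the Fk and Ra control at 12 h (11.36). Most neighbours in these orders did not differ beyond their spread: of 37 neighbouring pairs, the array ranges of 32 (MT1E) to 35 (MT1G, MT1X and MT2A) overlapped.

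The probe sets limit how far the metallothioneins can be told apart. Of the 14 probe sets, 9 end in _x_at, a suffix for probes that may match several transcripts, and all those that represent a metallothionein do except that of MT1M (217546_at). A further MT1X probe set (204326_x_at) carries the RefSeq accession of an RNA other than MT1X in the array annotation. The changes of the _x_at metallothionein probe sets that represent a gene correlated at r of 0.92 to 1.00 over the 26 comparisons, which share arrays and controls, and with MT1M at 0.79 to 0.93. The only MT1G probe set without the suffix (210472_at) stayed at 2.45 to 2.47 in the controls and was not tested; with CdCl it averaged 4.15 at 12 h and 3.28 at 48 h. When probe sets ending in _x_at or _s_at were left out, MT1M and SLC30A1 alone kept a tested probe set. It was the same for each as before, 217546_at and 212907_at, so the differences could not change. That all 13 of their calls stayed is therefore no check on matches to several transcripts, as only the other genes in the fit and adjustment differed.

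SLC30A1 has a further measured probe set, 228181_at, with control means of 8.45 to 9.41. It rose with CdCl at both times, by 2.15 and 2.46, with Di at 48 h (0.51) and with Nnm high at 24 h (1.25), as 212907_at did, and also with Kbr high and Nnm high at 48 h, where 212907_at was not called. With the high dose of Ota it fell at both times. Over the 26 comparisons the 2 probe sets correlated at r = 0.47. The third, 242716_at, stayed at 2.11 to 2.22 in the controls.

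**Figure D5:**
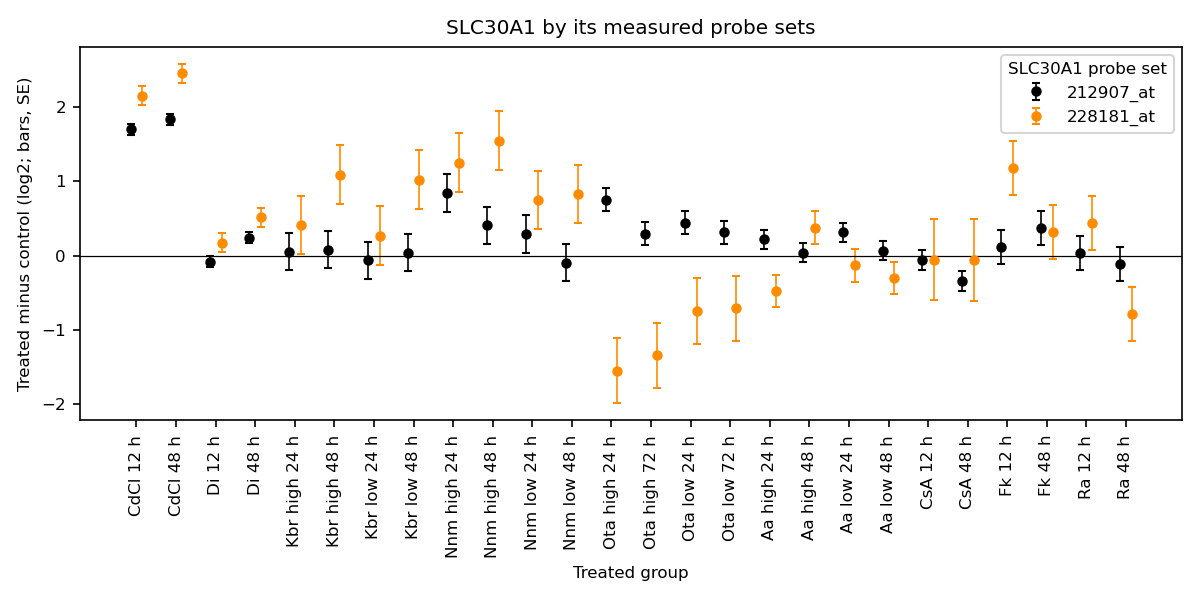
Treated minus control difference (log2, with SE) of the 2 measured SLC30A1 probe sets in the 26 comparisons. Both are high with CdCl, and in Ota high 24 h they lie on opposite sides of 0 (0.75 and -1.55).

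Over the 26 comparisons, the 7 correlations of a metallothionein with SLC30A1 lay between r = 0.55 and 0.82, and without the 2 CdCl comparisons between -0.02 and 0.22. Among the metallothioneins the 21 correlations lay between 0.79 and 1.00, and between 0.62 and 0.99 without CdCl. Of 10515 genes tested in all families, those most like the mean of the metallothioneins were MT1HL1, a metallothionein-like gene measured by an _x_at probe set (r = 0.985), SLC30A2, a zinc transporter of vesicles (0.863), VKORC1 of the vitamin K cycle (0.814), COL12A1, a collagen gene (0.808), and AP2B1, an adaptor of clathrin coats (0.789). Without CdCl these were 0.985, 0.847, 0.909, 0.418 and 0.749. Those most like SLC30A1 were NPL (0.864), GRHL1 (0.816), MAF (0.814), COL12A1 (0.784) and CCDC112 (0.744), all between 0.237 and 0.543 without CdCl.

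Among the other zinc genes, a list of 33 with 27 on the array and 19 tested, SLC30A2 was called higher in 3 of 26 comparisons and lower in 8. It rose with CdCl by 2.10 and 2.45, and with Nnm high at 24 h (0.82), where 0 metallothioneins were called. Its 8 falls were among the 11 comparisons in which at least 1 metallothionein fell, from -1.13 with Aa high at 24 h to -3.86 with Ota high at 72 h, and included Ota high at 24 h (-2.63), where metallothioneins were called in both directions. In the other 3 of the 11, Aa low at 48 h (-0.94) and Ota low at 24 h (-0.76) and 72 h (-0.20), it was not called. With CdCl 4 of the 19 rose and 2 fell at 12 h (median -0.02, against -0.17 over all genes tested), and 7 rose and 1 fell at 48 h (median 0.18 against -0.02). The share of all genes tested that was called in either direction was 48.7% with CdCl at 12 h and 46.4% at 48 h, 47.4% with Di at 48 h, 51.1% with Kbr high at 48 h, 63.2% with Ota high at 72 h and 64.3% with Aa high at 48 h. With CdCl at 12 h and 48 h SLC39A14, a zinc and iron importer, rose by 1.29 and 0.69, and MT1HL1 by 1.43 and 2.05. SLC39A14 also rose at 48 h with Di (0.75) and Kbr high (1.06) and low (1.21), where the metallothioneins fell. It fell with Aa low at 48 h (-0.36), Ota low at 72 h (-0.75) and Ra at 48 h (-1.85). Of the 19, 5 rose and 9 fell with Di at 48 h (median -0.26 against -0.02) and 4 and 7 with Kbr high at 48 h (-0.37 against -0.07). With Ota high at 72 h 5 and 9 did (-0.43 against -0.15) and with Aa high at 48 h 6 and 7 (-0.02 against -0.04). MTF1, singled out after its values were seen, was called higher in 9 of 26 comparisons and lower in 0, and was not called with CdCl. Of the 11 comparisons in which at least 1 metallothionein fell, it rose in 7, among them Ota high at 24 h (1.86) and 72 h (1.29), Aa high at 48 h (0.92) and Kbr high at 48 h (0.73), and was not called in 4: Di at 48 h, Kbr high at 24 h and Ota low at both times. It also rose with Aa low (0.61) and Nnm high (0.41) at 24 h, where 0 metallothioneins were called.

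Genes of the NRF2 response to oxidants and electrophiles rose both where the metallothioneins rose and where they fell. Of 8 tested, 8 rose with CdCl at 12 h (median 2.53) and 7 at 48 h (1.99), 8 with Di at 48 h (3.60) and 8 with Kbr at 48 h at both doses (2.77 and 2.57). Of all genes tested, 14.5%, 22.9%, 21.4%, 22.2% and 15.2% were called higher in these 5 comparisons, with medians between -0.17 and -0.01. The heme oxygenase gene HMOX1 rose by 6.14 and 6.02 with CdCl and by 5.36 with Di at 48 h. Heat shock genes rose in 7 of 7 with CdCl at 12 h (median 2.06), 6 of 7 at 48 h (1.56) and 6 of 7 with Di at 48 h (1.48), and HSPA6, an inducible chaperone, went from 2.86 to 10.71 with CdCl at 12 h. With Ota high at 72 h, 2 of 7 NRF2 genes rose and 2 fell, and 2 of 6 heat shock genes rose and 1 fell, where 25.3% of genes tested were called higher and 37.9% lower.

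Of 8 glucocorticoid targets tested, 3 rose and 3 fell with CdCl at 12 h (median 0.23), 2 and 3 at 48 h (-0.20), 3 and 3 with Di at 48 h (-0.23), 1 and 3 with Kbr high at 48 h (0.00) and 2 and 3 with Ota high at 72 h (0.11). The number called, 4 to 6 of 8, is to be read against the 46.4% to 63.2% of all genes tested called in these 5. DUSP1, a phosphatase of MAP kinases, rose in all 5, by 1.93 and 1.64 with CdCl, 1.99 with Di, 0.91 with Kbr and 0.83 with Ota. TSC22D3 fell in all 5: -0.75 and -1.96 with CdCl, -1.78 with Di, -1.64 with Kbr and -1.53 with Ota. SGK1, a kinase, fell in all 5, least with CdCl at 12 h (-0.45) and most with Di at 48 h (-3.30), and FKBP5, a chaperone of the receptor, fell in 4 and rose with Ota (1.14). Of 11 copper and iron genes tested in this family, 5 rose and 3 fell with CdCl at 12 h (median 0.24), 5 and 1 at 48 h (0.38), and 4 and 1 with Di at 48 h (0.38). The iron exporter gene SLC40A1 fell with CdCl at 48 h (-2.01) and with Kbr high at 48 h (-4.37).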

How the data were processed

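Total RNA of HK-2 cultures was labelled and hybridised to Affymetrix arrays. The deposited values are log2 intensities made with GCRMA, per the submitters' processing notes, with all arrays normalized together per the series' design text. How this scaling affects a group with a general loss of signal was examined by shifting arrays to a common median. Probe sets were named through GEO's platform annotation: 41091 of 54675 have 1 symbol and 1801 several. Where a gene has several probe sets, that of highest mean over all arrays stood for it. Genes above log2 4 on at least 3 arrays of a control family were tested (10806 to 11138 by family), with limma 3.58.1 in R 4.3.3, 1 fit per family, Benjamini-Hochberg adjustment over all genes tested and a threshold of 0.05. All tests are two-sided. No 2 arrays were identical (highest correlation 0.998), and the precision is limited by the 3 arrays of each group. The code was tested on simulated data. Replicate numbers were taken from the labels. Deviations from group means of same-numbered arrays correlated at 0.53 to 0.93 in the CsA family, 0.28 to 0.54 in the Aa family and 0.14 to 0.67 in the Nnm and Kbr family, so the numbers pair the arrays there. Members and gene lists were chosen with earlier results of these data known. Of other genes, at most the 3 called with the largest change in each list and comparison were named, beside the genes most alike in pattern, with exceptions named after their values were seen. Alternatives covered the filter, the choice of probe set, normalization, the fit, the replicate block and leaving out each array.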

Additional observations from a re-analysis of the deposited data

Results flagged for a closer look

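In 5 of the exposures the change against the control differed between the 2 times for most of the 8 genes, by limma's interaction term. With the high dose of Aa 6 of 8 members differed (18.8% of genes tested called), and with the high dose of Kbr 6 (1.89%). With the high dose of Ota 7 differed (53.4%), with CdCl 7 (30.4%) and with Di 8 (33.6%). For Aa, Kbr, Ota and Di the metallothioneins among these moved down between the earlier and the later time, and for CdCl they moved up. MT1M was the exception with Aa (0.36, adjusted p = 0.303), and MT1G with Kbr (-1.04, adjusted p = 0.0974), which was called with the replicate number as a block (adjusted p = 0.0119). With Di, SLC30A1 moved the other way from the metallothioneins (0.32, adjusted p = 0.0221), a call that ended without control replicate 2 at 12 h (0.30) or control replicate 1 at 48 h (0.27). Control levels of the metallothioneins also fell between the times, and each difference holds the change of the control as well as that of the treated group. With CdCl the treated metallothionein levels moved by -0.01 to 0.17 and the control levels by -1.55 to -0.40. For the other exposures the part of the controls was not tested. Groups of 3 arrays were too small to test for outlying arrays.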

How the results depend on the processing

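Of 81 called pairs of a gene and a comparison, 58 stayed called when each array was left out in turn, 23 were lost at least once and 0 reversed. Calls kept numbered 79 without the low-value filter, 81 with a stricter one, 80 with the mean of a gene's probe sets, 80 with every probe set fitted on its own, 79 after quantile normalization, 69 after shifting arrays to a common median, 81 with limma's trend, 72 in fits of 2 groups only, 81 with the replicate block and 52 in 1 fit of all arrays. The pairs called lower fell from 60 to 34 in that fit, and those called higher rose from 21 to 33 with the replicate block. Of 26 medians over the 8 genes, 19 stayed within 1 SD under every planned setting. A common median moved those of Ota high 24 h to 0.41, Ota low 24 h to -0.41, Ota high 72 h to -1.58, CdCl 12 h to 1.91 and Di 12 h to 0.0764. The mean of probe sets moved CdCl 12 h to 1.83 and Di 48 h to -1.14, quantile normalization CdCl 48 h to 2.32, and leaving out arrays gave 2.32 to 2.40 there. Signs turned for SLC30A1 in Ota high 24 h with the mean of probe sets (-0.26) and MT1F there with a common median (0.25); the cause was not tested. In the families of Ota, of CdCl and Di, and of Fk and Ra the replicate numbers were not taken to pair the arrays. The median correlations of same-numbered arrays there were 0.19, -0.05 and 0.20. Those of the Fk and Ra family ran from -0.18 to 0.76, and its arrays numbered 3 at 48 h stood above the others of their groups. In these families the block called 6 metallothioneins higher in Ra 48 h, 7 lower in the Fk and Ra controls over time, MT1H lower in Ota high 24 h and MT1G in Ota low at both times, and ended SLC30A1's difference between times with Di. The shares of all genes tested that the block called in these comparisons are not given here. A common median also called MT1M, MT1X and MT2A higher in Ra 48 h and SLC30A1 in Aa low 24 h (0.37) and Ota low 24 h (0.59). In the paired families the block's other changes were MT1M between the Aa doses at 48 h (0.38, adjusted p = 0.0129) and between Nnm and Kbr high at 24 h (0.64, adjusted p = 0.0198). The 3 settings that left out arrays of CsA, of Fk and Ra, or of Nnm were chosen after seeing the data.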
